A study of Mus musculus with 15 samples.

Results

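The genes examined here encode the machinery of mitosis and chromosome segregation, 40 genes taken by symbol from a fixed list. Of these, 39 had a probe set of their own among the 18194 genes measured on the arrays. Ccnb1, which encodes cyclin B1, was the exception. Where a gene had several probe sets, the one brightest on average was read, on the scale log2(signal + 16), where signal is the deposited array intensity. The 39 genes fall into 6 roles: 9 measured kinases, cyclins and regulators of mitotic entry and exit, 3 genes of the chromosomal passenger complex, 9 of the kinetochore and spindle checkpoint, 6 of spindle assembly, 6 of the central spindle and cytokinesis, and 6 of chromosome structure.

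The arrays held thymocytes from young adult C57BL/6 mice in 5 groups of 3 samples. PreDP cells (CD69- TCRβ-) and PostDP cells (CD69+ TCRβ+) were CD4 CD8 double-positive thymocytes before and after selection, sorted from B2m-/- mice, in which MHC class II-restricted CD4 cells alone are selected. Tak1-deficient SM&M1 cells were Qa2- CD69+ CD4 single-positive (CD4SP) thymocytes of Tak1f/f CD4Cre mice, in which Cre driven by CD4 elements deletes floxed Tak1 (Map3k7) from the double-positive stage on. SM&M1 cells (Qa2- CD69+) and M2 cells (Qa2+ CD69-) were the earlier and later CD4SP thymocytes of Rag2-GFP BAC transgenic mice, gated on Rag2-GFP and against NK1.1, CD25 and GL3. The labels state those gates for the Rag2-GFP mice and not for the Tak1f/f CD4Cre mice. Mouse line therefore changed together with stage between PreDP or PostDP and SM&M1 or M2. It changed together with genotype between Tak1-deficient SM&M1 and SM&M1, and with stage and genotype between PreDP or PostDP and Tak1-deficient SM&M1. These cannot be told apart. The labels call the samples biological replicates but name no individual mice, so p-values here describe sample-to-sample spread, part of which may be technical.

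Median signal lay between 80.5 and 121 in 14 arrays and at 168 in Tak1-deficient SM&M1 replicate 2, whose correlations within its group were 0.873 and 0.879, against at least 0.965 for any other pair of replicates. Map3k7 was at 5.39 ± 0.65 in Tak1-deficient SM&M1 and 10.42 ± 0.03 in SM&M1 (SD, n = 3 each). Among double-positive markers such as Rag1 and Cd8a, the median relative to the PreDP mean lay between -6.20 and -3.84 in SM&M1 and between -6.70 and -3.98 in M2, against -4.61 to -3.20 in Tak1-deficient SM&M1. The median of the CD4 single-positive list was above the PreDP mean by 2.78 to 5.12 in the CD4SP arrays of all 3 groups, but not every gene followed it. Cd4 was at 11.02 to 12.50 in those arrays, against 12.56 to 12.78 in PreDP. S1pr1 was at 7.97, 5.71 and 7.69 in Tak1-deficient SM&M1, against 9.73, 9.81 and 9.41 in SM&M1 and 6.43, 6.53 and 7.33 in PreDP. With 3 arrays a group, precision is limited.

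Mitotic genes are switched on in G2 and M phase and silenced in resting cells. Cdk1 bound to cyclins A2, B1 and B2 drives entry into mitosis, the kinetochore ties chromosomes to spindle microtubules while the checkpoint kinases delay anaphase, and the anaphase-promoting complex with Cdc20 and Ube2c destroys the cyclins to end it. In the thymus, double-negative and immature single-positive thymocytes divide rapidly and give rise to double-positive cells, most of which are small and no longer divide. Many mitotic promoters carry a cell cycle genes homology region, with the core TTTGAA or its variant form TTTAAA, downstream of CCAAT boxes bound by NF-Y. The DREAM complex binds the homology region in resting cells, and B-Myb and Foxm1 act through it in G2.

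Promoter windows of 300 bases, from 250 before to 50 after the RefSeq start site (build GRCm38.p6), were listed for 33 of the 40 members, in 35 windows. The 250 bases before the start are given here 5′ to 3′ on the gene's strand for Cdk1, Mki67 and Top2a, whose RNA is described throughout, and for Birc5 and Nusap1, which had the largest differences of their roles in PostDP. Capitals mark the homology region core TTTGAA, its variant form TTTAAA and the NF-Y box CCAAT on either strand. On the opposite strand the core reads TTCAAA and the box reads ATTGG.
Cdk1 (chr10:69352913-69353162, minus strand): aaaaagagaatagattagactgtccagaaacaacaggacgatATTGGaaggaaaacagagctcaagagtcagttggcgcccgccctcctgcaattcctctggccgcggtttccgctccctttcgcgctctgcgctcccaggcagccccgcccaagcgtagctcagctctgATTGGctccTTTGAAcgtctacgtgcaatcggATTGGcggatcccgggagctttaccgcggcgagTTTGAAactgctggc
Mki67 (chr7:135716380-135716629, minus strand): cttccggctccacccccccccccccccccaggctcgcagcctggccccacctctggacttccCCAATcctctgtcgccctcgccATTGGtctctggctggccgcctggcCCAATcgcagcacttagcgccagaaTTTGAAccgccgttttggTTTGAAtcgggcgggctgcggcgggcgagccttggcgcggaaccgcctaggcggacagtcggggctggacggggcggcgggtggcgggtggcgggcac
Top2a (chr11:99024190-99024439, minus strand): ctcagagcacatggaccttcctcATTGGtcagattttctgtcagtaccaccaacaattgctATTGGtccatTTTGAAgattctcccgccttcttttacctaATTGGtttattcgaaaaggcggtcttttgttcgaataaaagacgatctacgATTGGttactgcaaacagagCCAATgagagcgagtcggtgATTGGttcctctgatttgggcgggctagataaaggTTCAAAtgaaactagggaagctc
Birc5 (chr11:117848987-117849236, plus strand): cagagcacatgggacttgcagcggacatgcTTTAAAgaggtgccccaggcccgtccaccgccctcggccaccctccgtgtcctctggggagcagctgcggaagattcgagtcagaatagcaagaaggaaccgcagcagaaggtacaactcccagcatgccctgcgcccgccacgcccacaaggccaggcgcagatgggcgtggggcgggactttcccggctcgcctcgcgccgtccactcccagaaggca
Nusap1 (chr2:119618048-119618297, plus strand): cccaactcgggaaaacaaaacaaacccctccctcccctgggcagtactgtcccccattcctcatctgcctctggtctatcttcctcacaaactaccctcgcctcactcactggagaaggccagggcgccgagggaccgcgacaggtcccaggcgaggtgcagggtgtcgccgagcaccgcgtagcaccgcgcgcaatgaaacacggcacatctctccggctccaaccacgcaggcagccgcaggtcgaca

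The motifs were shared widely but not by all members. TTTGAA was present on either strand in 28 of the 35 windows (80%), against 17.9% of all 32851 promoter windows in the same RefSeq table. CCAAT was present in 80% of member windows, against 37.4% of all windows, and at least 2 copies in 51.4%, against 11.7%. The core TTTGAA together with CCAAT was held by 71.4% of member windows and 6.95% of all windows. E2F motifs, searched as TTCCCGC, in another form as TTGGCGC and in a last form as TTGGCGG, were in 22.9% of member windows and 9.07% of all. Both forms ending in GGCGC or GGCGG can overlap a CCAAT box on the other strand. The windows of Nusap1, Nuf2 and Melk held none of the core, its variant form and the box, and that of Birc5 held TTTAAA alone. Bub1 and Ect2 also had the largest differences of their roles in PostDP, but their windows are not printed here. That of Bub1 held 2 copies of CCAAT and neither form of the core. Those of Ect2 held TTTGAA and 3 copies of CCAAT. Among the 29 windows of members that fell in PostDP, 79.3% held TTTGAA, and all 5 windows of measured members that did not pass held it too.

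Across the stages, the mitotic genes were lowest in PostDP. The lowest of the 5 group means was in PostDP for 36 of the 39 members, and in PreDP, Tak1-deficient SM&M1 and M2 for 1 each. The highest was in PreDP for 26, in Tak1-deficient SM&M1 for 5, in SM&M1 for 2 and in M2 for 6. In each array, the median of the 39 members relative to their PreDP means was 0.98, -0.60 and -0.36 in PreDP replicates 1, 2 and 3 and -1.22, -2.94 and -2.55 in those of PostDP. It was -0.76, -0.59 and 0.13 in Tak1-deficient SM&M1, -0.10, -0.61 and -0.70 in SM&M1, and 0.38, -0.54 and -0.64 in M2. Every PostDP array was thus below every array of the other groups, and the 4 other groups overlapped. Over all 18194 genes the same median stayed between -0.06 and 0.13, apart from 0.41 in Tak1-deficient SM&M1 replicate 2.

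**Figure D1:**
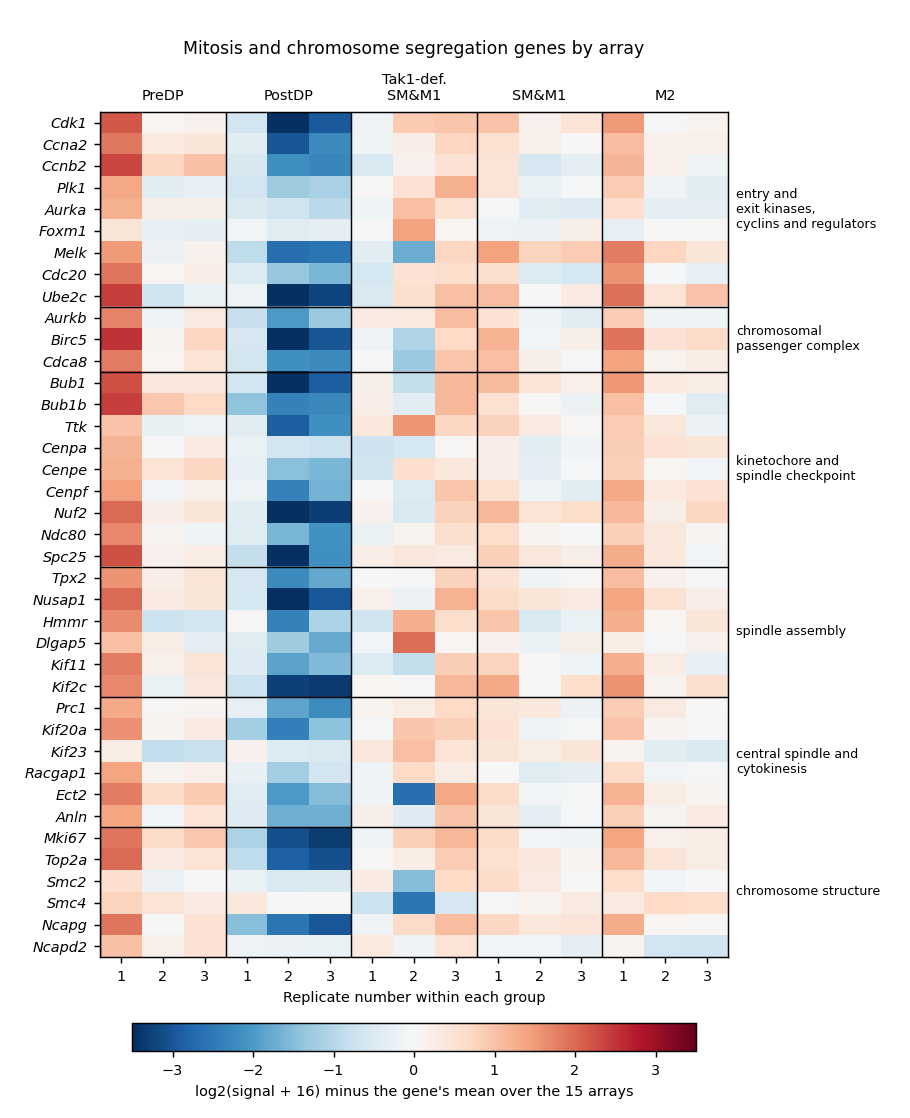
Levels of the 39 measured members (rows, by role) in the 15 arrays (columns, by group), as log2(signal + 16) minus the gene's mean over all arrays; red is higher and blue lower. PostDP replicates 2 and 3 are the bluest columns, replicate 1 is the reddest of its group in most rows of PreDP and M2, and Foxm1, Kif23, Smc4 and Ncapd2 are pale in PostDP.

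Among the genes of mitotic entry and exit, Cdk1 was at 11.26, 9.16 and 9.24 in PreDP, 8.43, 5.41 and 6.14 in PostDP, 8.92, 10.01 and 10.06 in Tak1-deficient SM&M1, 10.08, 9.25 and 9.57 in SM&M1 and 10.57, 9.01 and 9.22 in M2. Cdk1 is the mitotic kinase, and its 3 PostDP arrays were below all 12 other arrays. Ccnb2 was at 11.75, 10.15 and 10.43 in PreDP, 8.87, 7.28 and 7.13 in PostDP, 8.89, 9.58 and 9.92 in Tak1-deficient SM&M1, 9.89, 8.85 and 9.09 in SM&M1 and 10.62, 9.60 and 9.28 in M2. Ccnb2 encodes cyclin B2; its PostDP arrays were below the PreDP arrays, while PostDP replicate 1 was level with the lowest SM&M1 array. Melk was at 8.49, 6.78 and 7.14 in PreDP, 6.09, 4.34 and 4.43 in PostDP, 6.61, 5.25 and 7.71 in Tak1-deficient SM&M1, 8.41, 7.77 and 7.88 in SM&M1 and 8.77, 7.74 and 7.42 in M2. Melk, a kinase gene expressed in dividing cells, was lower in all 3 Tak1-deficient SM&M1 arrays than in all 3 SM&M1 arrays, although that difference did not pass the test. Such an order held for 2 members, against 9.01% of all genes tested.

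Of the chromosomal passenger complex, which corrects faulty attachments of chromosomes, Birc5 was at 12.35, 9.93 and 10.57 in PreDP, 9.24, 6.11 and 6.84 in PostDP, 9.65, 8.76 and 10.52 in Tak1-deficient SM&M1, 11.04, 9.73 and 10.04 in SM&M1 and 11.72, 10.34 and 10.50 in M2. Birc5 encodes survivin; its PostDP arrays were below those of PreDP, SM&M1 and M2 and overlapped with Tak1-deficient SM&M1. At the kinetochore, Bub1 was at 10.42, 8.57 and 8.59 in PreDP, 7.52, 4.41 and 5.30 in PostDP, 8.40, 7.36 and 9.33 in Tak1-deficient SM&M1, 9.30, 8.66 and 8.39 in SM&M1 and 9.73, 8.55 and 8.46 in M2. Bub1b was at 10.04, 8.58 and 8.32 in PreDP, 6.21, 5.26 and 5.37 in PostDP, 7.87, 7.26 and 8.78 in Tak1-deficient SM&M1, 8.16, 7.66 and 7.43 in SM&M1 and 8.68, 7.59 and 7.20 in M2. Bub1 and Bub1b encode the checkpoint proteins Bub1 and BubR1, and both were below the median signal of the array in PostDP replicates 2 and 3. Nuf2 was at 10.33, 8.59 and 8.77 in PreDP, 7.98, 4.70 and 5.05 in PostDP, 8.49, 7.81 and 9.15 in Tak1-deficient SM&M1, 9.48, 8.82 and 8.96 in SM&M1 and 9.47, 8.54 and 9.06 in M2. Nuf2 is a subunit of the Ndc80 complex, which holds microtubule ends; its levels in SM&M1 and M2 overlapped with those in PreDP.

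For spindle assembly, Nusap1 was at 11.77, 10.10 and 10.23 in PreDP, 9.19, 5.98 and 6.84 in PostDP, 9.98, 9.60 and 11.01 in Tak1-deficient SM&M1, 10.46, 10.22 and 10.11 in SM&M1 and 11.19, 10.33 and 10.05 in M2. Nusap1 bundles spindle microtubules around chromosomes, and its PostDP arrays lay below every other array. Kif2c was at 9.69, 7.79 and 8.39 in PreDP, 7.26, 4.73 and 4.67 in PostDP, 8.08, 8.03 and 9.16 in Tak1-deficient SM&M1, 9.34, 8.06 and 8.63 in SM&M1 and 9.58, 8.14 and 8.57 in M2. Kif2c is a kinesin that dismantles microtubules at centromeres and had the same order, with PostDP below every other array. In the central spindle, Kif20a was at 8.92, 7.40 and 7.59 in PreDP, 6.11, 4.91 and 5.87 in PostDP, 7.23, 8.29 and 8.13 in Tak1-deficient SM&M1, 7.83, 7.15 and 7.25 in SM&M1 and 8.30, 7.41 and 7.27 in M2. Kif20a is a kinesin needed to bring Aurora B to the midzone; it too was lowest in the 3 PostDP arrays.

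Of the genes of chromosome structure, Mki67 was at 12.33, 11.09 and 11.40 in PreDP, 9.34, 7.36 and 7.13 in PostDP, 10.32, 11.27 and 11.60 in Tak1-deficient SM&M1, 11.08, 10.34 and 10.31 in SM&M1 and 11.81, 10.63 and 10.70 in M2. Mki67 encodes Ki-67, the coat protein of mitotic chromosomes used as a marker of cycling cells. Top2a was at 12.94, 11.23 and 11.43 in PreDP, 10.07, 8.09 and 7.87 in PostDP, 10.99, 11.22 and 11.85 in Tak1-deficient SM&M1, 11.47, 11.31 and 11.05 in SM&M1 and 12.10, 11.40 and 11.22 in M2. Top2a encodes the topoisomerase that untangles sister DNA, and in both genes the PostDP arrays were below the other 12. Ncapg was at 9.35, 7.46 and 7.99 in PreDP, 5.97, 4.93 and 4.51 in PostDP, 7.36, 8.14 and 8.55 in Tak1-deficient SM&M1, 8.19, 7.85 and 7.91 in SM&M1 and 8.78, 7.54 and 7.52 in M2. Ncapg is a subunit of condensin I, and its PostDP arrays were again below all others. By contrast, Smc4 was at 13.90, 13.55 and 13.39 in PreDP, 13.48, 13.09 and 13.15 in PostDP, 12.36, 10.58 and 12.52 in Tak1-deficient SM&M1, 13.04, 13.23 and 13.42 in SM&M1 and 13.44, 13.81 and 13.73 in M2. Smc4 is a core subunit of both condensins; its PostDP arrays overlapped with those of SM&M1, and its 3 Tak1-deficient arrays were the lowest of the 15.

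**Figure D2:**
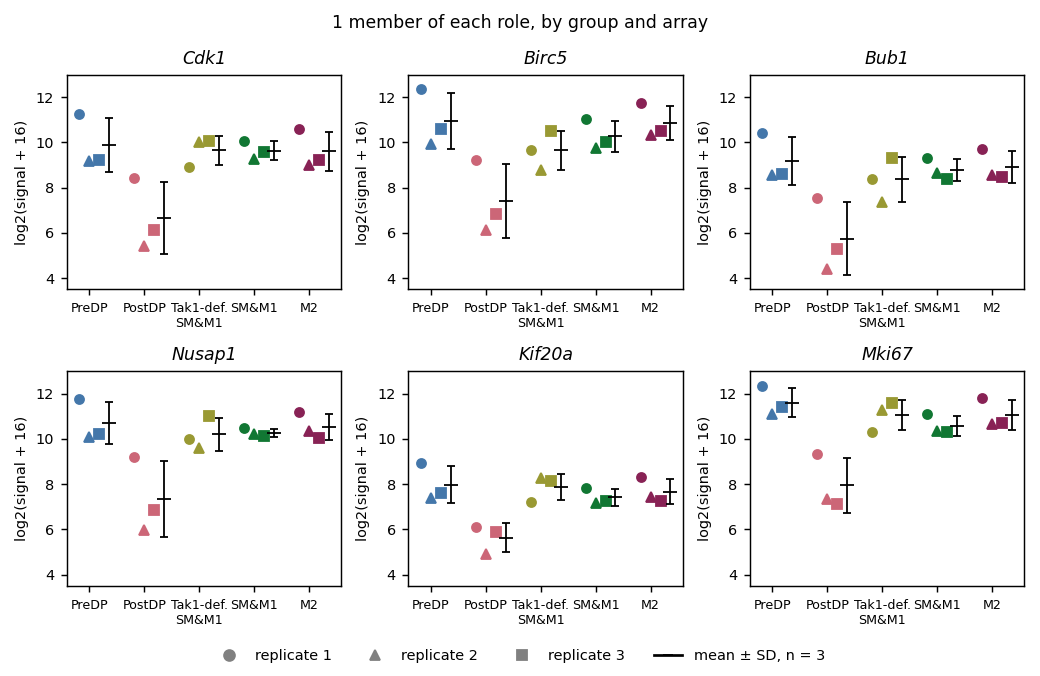
Levels on the log2(signal + 16) scale of 1 member of each role in every array, with the group mean and SD (n = 3) in black; symbols mark the replicate number. In all 6 genes the 3 PostDP arrays lie below the PreDP arrays, and replicate 1 is the highest of its group in PreDP, PostDP, SM&M1 and M2.

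The comparison of PostDP with PreDP asked which mitotic genes differ once double-positive thymocytes have been selected. Of the 39 members, 31 fell and none rose in limma at an adjusted p under 0.05, where 7.57% of the 11872 genes tested fell and 7.35% rose. At an unadjusted p under 0.05, 34 passed, against 25.7% of all genes tested. Of all genes called, 49.3% were higher in PostDP, and 36.1% with each array centred on its median. The median of the members was -2.09 on the log2 scale, a 4.27-fold lower level, against 0.01 for all genes tested. All 3 PostDP arrays were below all 3 PreDP arrays in 34 members, against 19.6% of all genes tested. In bulk samples such as these, fewer cells expressing a gene and less RNA per cell cannot be told apart. Log2 fold changes are given with the standard error of the limma fit (n = 3 per group).

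All 3 passenger complex genes and all 9 kinetochore and checkpoint genes fell. Birc5 fell by 3.55 ± 0.79 (adjusted p = 0.00761 in limma), and Cdca8, which encodes borealin, fell by 2.46 ± 0.63 (adjusted p = 0.0168). Aurkb, the complex's kinase, fell by 2.0. Bub1 fell by 3.45 ± 0.75 (adjusted p = 0.00625), Bub1b fell by 3.36 ± 0.51 (adjusted p = 0.000533), and the other 7 differed by -3.32 (Nuf2) to -1.03 (Cenpa, the centromeric histone). Those 7 also hold Ndc80 and Spc25, of the same complex as Nuf2, the checkpoint kinase gene Ttk, the kinesin gene Cenpe and the kinetochore corona gene Cenpf.

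Of the 9 measured entry and exit genes, 7 fell. Cdk1 was at 6.66 ± 1.58 in PostDP and 9.89 ± 1.19 in PreDP (SD, n = 3 each), and fell by 3.23 ± 0.74 (adjusted p = 0.00877 in limma). Ccnb2 fell by 3.02 ± 0.54 (adjusted p = 0.00171). Ube2c, Ccna2 (cyclin A2), Melk, Cdc20 and Aurka (Aurora A, the spindle pole kinase) fell too, with differences of -2.95, -2.72, -2.52, -1.86 and -1.27. Plk1, the polo kinase, differed by -1.23 ± 0.46 (adjusted p = 0.101) and Foxm1, the transcription factor gene, differed by -0.22 ± 0.33 (adjusted p = 0.77). Although Ube2c passed at 0.0476, its arrays overlapped, with 9.99 in PostDP replicate 1 against 9.48 in PreDP replicate 2.

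In spindle assembly 4 of 6 fell: Nusap1 at -3.36 ± 0.69 (adjusted p = 0.00439 in limma), Kif2c at -3.07 ± 0.68 (adjusted p = 0.00762), Tpx2, an activator of Aurora A, at -2.28 and Kif11, the kinesin that separates spindle poles, at -2.09. Dlgap5 differed by -1.48 (adjusted p = 0.0642) and Hmmr by -1.21 (adjusted p = 0.356). In the central spindle and cytokinesis 5 of 6 fell. Ect2, which activates RhoA at the division furrow, fell by 2.43 ± 0.76 (adjusted p = 0.0489), and Kif20a fell by 2.34 ± 0.45 (adjusted p = 0.00281). Prc1, the midzone bundling protein gene, Anln (anillin) and Racgap1, the partner of Ect2, fell too, with differences of -1.94, -1.88 and -1.28. Kif23, a motor of the same midzone, differed by 0.18 ± 0.30 (adjusted p = 0.806), the one member with a difference above 0.

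Chromosome structure genes split. Mki67 was at 7.94 ± 1.21 in PostDP and 11.60 ± 0.65 in PreDP (SD, n = 3 each), and fell by 3.66 ± 0.56 (adjusted p = 0.000563 in limma), the largest difference of the 39. Top2a fell by 3.19 ± 0.54 (adjusted p = 0.00129) and Ncapg fell by 3.13 ± 0.51 (adjusted p = 0.000904). The other condensin genes did not pass: Ncapd2 differed by -0.77 ± 0.25 (adjusted p = 0.0587), Smc2 by -0.55 ± 0.45 (0.523) and Smc4 by -0.37 ± 0.39 (0.641). The 3 probe sets of Smc4 gave -0.37, -0.55 and -0.39. Same-numbered samples of these groups deviated together, and when replicate number was a block, with the 2 groups fitted alone, Plk1 (adjusted p = 0.0311), Dlgap5 (0.00176), Hmmr (0.0335) and Ncapd2 (0.0446) passed as well, for 35 members lower.

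The number of calls depended on single arrays, though no member rose without any of them. Without PreDP replicate 1, 17 members fell, without PostDP replicate 2, 16, and without PostDP replicate 3, 17. The median over same-numbered arrays was -2.20, -2.26 and -2.25 for replicates 1, 2 and 3, and with replicate 1 left out of both groups 25 fell, with a median of -2.15. In PostDP replicates 2 and 3, 22 and 21 of the 39 members lay below the median signal of the array, against 4 in PostDP replicate 1 and at most 1 in a PreDP array, so the pseudocount of 16 limits the largest folds. Other probe sets above the same signal filter were compared by direction alone. Of 23 of members that fell, 21 had the same direction, and the exceptions were 1 of Cenpa at 0.31 and 1 of Kif2c at 0.11. Sizes differed more. Kif2c was at -3.07 on the probe set used and at -0.24, -0.66 and 0.11 on its others. Spc25 was at -3.08 against -0.12, Cenpf at -1.91 against -0.25 and Top2a at -3.19 against -0.68. Closer pairs included Bub1b, at -3.36 against -3.80, and Ccna2, at -2.72 against -2.35.

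Markers of the dividing precursors of double-positive cells were set beside this comparison. The summed signal of 13 genes of double-negative and immature single-positive thymocytes was 2676 to 2976 in PostDP and 5999 to 8229 in PreDP. Ptcra, at 12.03, 11.38 and 11.81 in PreDP, weighs most in the PreDP sums. The median of the 13 genes relative to the PreDP mean was 0.21, -0.09 and 0.07 in PreDP and -0.09, -0.03 and -0.15 in PostDP. Of the 10 tested 4 fell and 1 rose, and Cd34 and Erg were below the array median in all 15 arrays. The part of such cells in the result was not tested. Other cell cycle genes moved too. Of 83 other mitosis genes tested, 38 fell and none rose, led by Shcbp1 (-3.80 ± 0.78, adjusted p = 0.00455), Cenpk (-3.44 ± 0.57) and Cdca5 (-3.39 ± 0.59), which encode a midbody protein, a kinetochore subunit and sororin. Of 45 genes of DNA replication and S phase, 27 fell and none rose, led by Rrm2 (-4.19 ± 0.64, adjusted p = 0.000575), Cdc6 (-4.03 ± 0.61) and Ccne2 (-3.73 ± 0.44), for deoxynucleotide synthesis, origin licensing and cyclin E2. Their medians were -1.22 and -1.16. Of 19 cell cycle transcription regulators 5 fell, with E2f8 at -4.12 ± 0.67, E2f2 at -3.49 ± 0.27 and E2f7 at -1.98 ± 0.34.

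**Figure D3:**
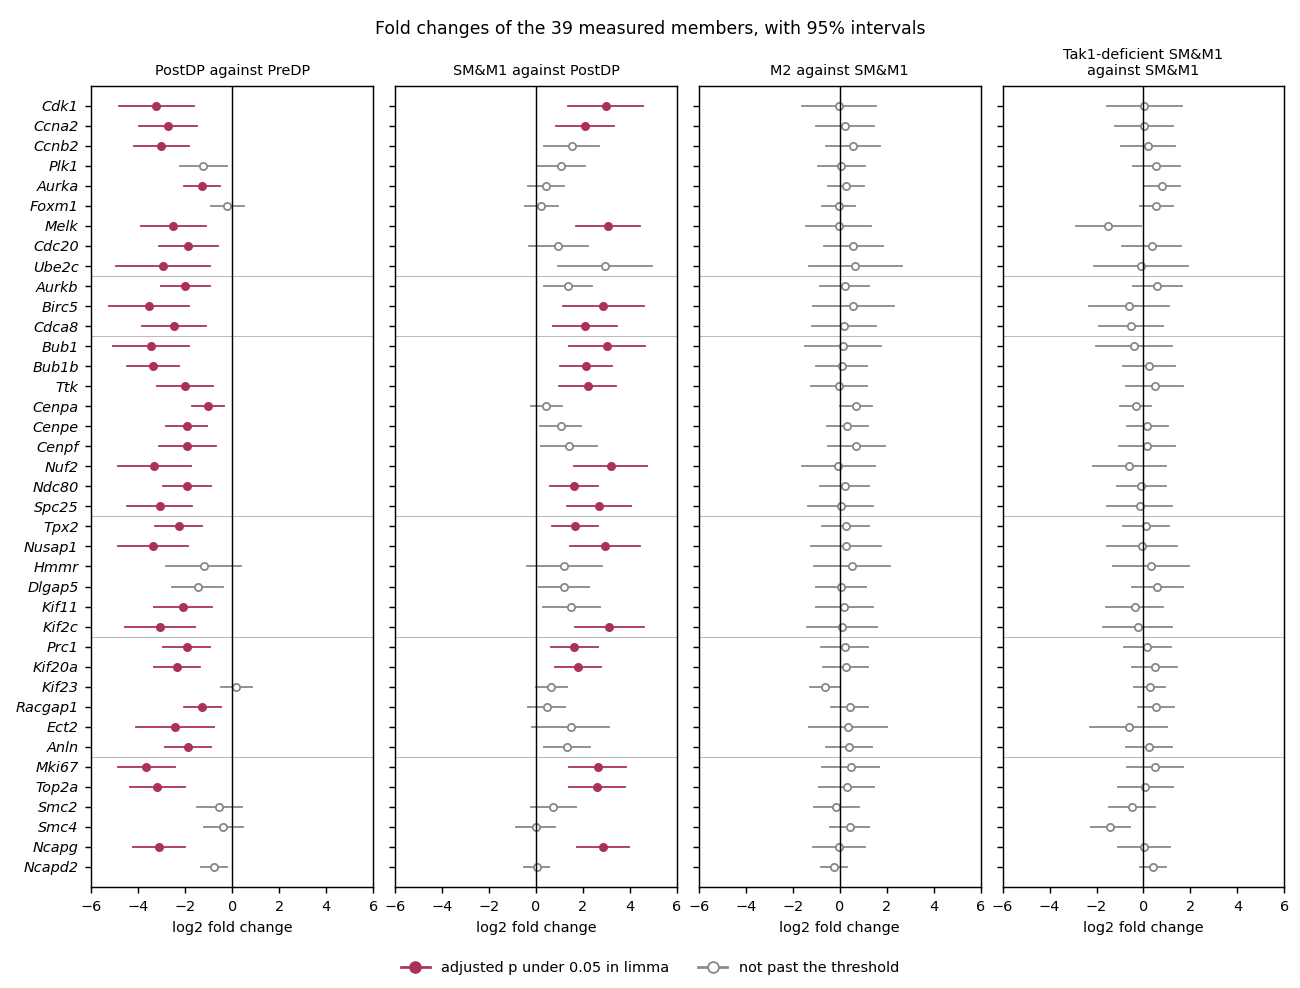
Log2 fold changes of the 39 measured members (rows, by role) in 4 comparisons, with 95% intervals from limma; filled points passed an adjusted p of 0.05. In PostDP against PreDP 31 lie to the left of 0 and passed, in SM&M1 against PostDP 19 to the right passed, and none passed for M2 or Tak1-deficient SM&M1, each against SM&M1.

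SM&M1 was set against PostDP for the step into the CD4 single-positive stage. It uses the same PostDP arrays as the comparison above, so the directions of these 2 comparisons are not independent. Of the 39 members 19 rose and none fell, where 7.84% of all genes tested rose and 4.14% fell. At an unadjusted p under 0.05, 28 passed in limma, against 24.5% of all genes tested. The median was 1.62, a 3.07-fold higher level, against 0.03 for all genes tested. All 3 SM&M1 arrays were above all 3 PostDP arrays in 29 members, against 23.1% of all genes tested.

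By role, 6 of 9 kinetochore and checkpoint genes rose, with Nuf2 higher by 3.18 ± 0.72 (adjusted p = 0.0107 in limma) and Bub1 by 3.04 ± 0.75 (adjusted p = 0.0176). Spc25, Ttk, Bub1b and Ndc80 rose by 2.68, 2.21, 2.13 and 1.62. In the passenger complex Birc5 rose by 2.87 ± 0.79 (adjusted p = 0.0316) and Cdca8 by 2.07 ± 0.63 (adjusted p = 0.0485), while Aurkb differed by 1.36 (adjusted p = 0.0868). Of the entry and exit genes 3 of 9 rose: Melk by 3.07 ± 0.64 (adjusted p = 0.007), Cdk1 by 2.97 ± 0.74 (adjusted p = 0.0183) and Ccna2 by 2.10. Ube2c, at 2.92 (adjusted p = 0.0579), Ccnb2 at 1.51, Plk1 at 1.07, Cdc20 at 0.96, Aurka at 0.42 and Foxm1 at 0.24 did not pass.

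In spindle assembly Kif2c rose by 3.12 ± 0.68 (adjusted p = 0.00904 in limma), Nusap1 by 2.93 ± 0.69 (adjusted p = 0.0136) and Tpx2 by 1.67, and Kif11 (1.51), Hmmr (1.20) and Dlgap5 (1.20) did not pass. Kif20a, at 1.78 ± 0.45 (adjusted p = 0.0202), and Prc1, at 1.63 ± 0.46 (adjusted p = 0.0354), rose among the cytokinesis genes. Ect2, Anln, Kif23 and Racgap1 stood at 1.48, 1.32, 0.65 and 0.45 and did not pass. Of chromosome structure, Ncapg rose by 2.84 ± 0.51 (adjusted p = 0.00263), Mki67 by 2.63 ± 0.56 (adjusted p = 0.00767) and Top2a by 2.60 ± 0.54 (adjusted p = 0.00705). Smc2, Ncapd2 and Smc4 differed by 0.73, 0.03 and -0.01. The remaining kinetochore genes Cenpf, Cenpe and Cenpa, at 1.41, 1.06 and 0.45, did not pass either.

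Fewer calls held here when an array was left out, with 5 members rising when PostDP replicate 2 was left out and 7 when it was replicate 3. Leaving out SM&M1 replicates 1, 2 and 3 in turn gave 7, 12 and 11. In a fit that left replicate 1 out of both groups 16 rose, with a median of 1.81. Kif2c, Melk, Mki67, Ncapg and Top2a passed in every alternative that tested them, whereas Cdca8 lost its call in 15 of 29 and Ndc80 in 14 of 28. Among 15 other probe sets above the signal filter of members that rose, 13 had the same direction. The exceptions were 1 each of Tpx2 (-0.04) and Kif2c (-0.12). Sizes again differed. Kif2c was at 3.12 on the probe set used and at 0.57, 0.28 and -0.12 on its others, and Spc25 at 2.68 against 0.14. Bub1b was at 2.13 against 2.88, and Ccna2 at 2.10 against 1.88. The summed signal of the 13 double-negative and immature single-positive genes was 5199 to 7160 in SM&M1 and 2676 to 2976 in PostDP, and of the 10 tested 2 rose and none fell. It was 7462 to 8709 in M2. Dtx1 (11.04, 11.23 and 11.10) and Cd44 (11.32, 11.30 and 10.79) were the brightest of the list in SM&M1 and weigh most in its sum. Of the 10 tested, 8 had a difference above 0 and 2 below. Ptcra was at 8.73, 6.63 and 6.76 in SM&M1 and 8.01, 6.95 and 5.63 in PostDP, against 12.03, 11.38 and 11.81 in PreDP. The part of such precursor cells in this result was not tested either. Of the other lists, 20 of 83 mitosis genes rose, again led by Shcbp1 (3.41 ± 0.78), and 21 of 45 S phase genes rose, led by Pole, the leading-strand polymerase gene, at 3.52 ± 0.64 (adjusted p = 0.00293). Among the regulators 5 rose, with E2f8 at 2.54 ± 0.67, E2f1 at 1.47 ± 0.25 and E2f7 at 1.42 ± 0.34, and 1 fell.

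Later stages were also set against PreDP and each other. M2 and PreDP are the last and the first stage and also come from different mouse lines. Between them 1 of the 39 members differed, where 27.1% of all genes tested passed, 14.6% higher and 12.5% lower. Higher calls were thus 53.9% of all calls, but 44.5% with each array centred on its median. That member was Ncapd2, a condensin I subunit gene, at 10.47, 9.71 and 9.70 in M2 against 11.42, 10.55 and 10.89 in PreDP. All its M2 arrays were below its PreDP arrays, which held for 1 member, against 23.1% of all genes tested. Ncapd2 fell by 0.99 ± 0.25 (adjusted p = 0.00924 in limma), with adjusted p between 0.00253 and 0.0473 over the alternatives. Its other probe set, also above the signal filter, gave -0.17. The members' median was -0.22, but it was 0.25 without PreDP replicate 1. Mki67 was at 11.05 ± 0.66 in M2 and 11.60 ± 0.65 in PreDP (SD, n = 3 each), a difference of -0.55 with a 95% interval of -1.76 to 0.66. Intervals of that width do not show the levels to be equal. Of 45 S phase genes 10 fell and 1 rose, led by Ccne2 (-2.38 ± 0.44), Uhrf1 (-2.28 ± 0.52) and Gins1 (-1.54 ± 0.39). Of the other mitosis genes 5 of 83 fell and 1 rose, with Mad1l1, a checkpoint gene, at -3.03 ± 0.33, Cenpl at -1.30 ± 0.21 and Spdl1 at -1.29 ± 0.32. Among the regulators E2f2 (-1.67 ± 0.27) and Mybl2, which encodes B-Myb (-1.36 ± 0.29), fell and E2f6 rose (1.19 ± 0.17). M2 itself lay above PostDP in all 3 arrays for 35 members, against 25.6% of all genes tested.

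M2 against SM&M1 addressed the last maturation step, within the Rag2-GFP mice. No member passed in limma over all groups, where 2.33% of all genes tested passed, 0.952% higher and 1.38% lower. At an unadjusted p under 0.05, 1 of the 39 members passed, against 10.3% of all genes tested. Differences ranged from -0.62 (Kif23) to 0.71 (Cenpf), with a median of 0.21. Kif23 was at 10.65, 10.14 and 10.02 in M2 and 10.94, 10.80 and 10.94 in SM&M1, below in every array, with an adjusted p of 0.542. Cenpa was at 11.41, 11.06 and 10.96 in M2 and 10.78, 10.16 and 10.41 in SM&M1, above in every array, and had the lowest adjusted p, 0.45. All 3 M2 arrays were below all 3 SM&M1 arrays in 1 member, against 13.1% of all genes tested. They were above in 2, Cenpa and Smc4, against 10.5%. Same-numbered samples of these groups deviated together, and when replicate number was a block, with the 2 groups fitted alone, Cenpa rose by 0.70 (adjusted p = 0.0472), Cenpf by 0.71 (0.0481) and Birc5 by 0.58 (0.0474). The median was -0.07 without M2 replicate 1. The typical 95% interval of the fit over all groups reached 1.16 to either side. None of the 45 S phase genes passed either, with 4 at an unadjusted p under 0.05, against 10.3% of all genes tested. Their median was -0.28, with 40 of 45 below 0, against 50.8% of all genes tested.

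Tak1-deficient SM&M1 was compared with SM&M1 to see whether mitotic genes differ without Tak1, a kinase upstream of NF-κB and stress kinases. No member passed in limma, where 1.69% of all genes tested passed, 0.43% higher and 1.26% lower. At an unadjusted p under 0.05, 3 of the 39 members passed, against 17.9% of all genes tested. Of all genes called, 25.4% were higher, and 13.4% with each array centred on its median. The median was 0.11, and differences ran from -1.50 (Melk, adjusted p = 0.25) to 0.78 (Aurka, adjusted p = 0.275). Smc4 had the lowest adjusted p, 0.091, at 11.82 ± 1.08 in Tak1-deficient SM&M1 and 13.23 ± 0.19 in SM&M1 (SD, n = 3 each), a difference of -1.41 ± 0.39. Its other probe sets gave -1.07 and -0.77. Smc4 passed in 4 of 28 alternatives: as the mean of its probe sets (-1.09, adjusted p = 0.0212), with array weights (-0.84, 0.048), and without Tak1-deficient replicate 2 (-0.79, 0.0455) or 3 (-1.76, 0.043). Over the alternatives its adjusted p ranged from 0.0212 to 0.802. In replicate 2, the array that stood apart, Smc4 was at 10.58, Ect2 at 6.57 and Melk at 5.25, each the lowest of its group. That array was the lowest of its group for 16 members and the highest for 10, among them Aurka at 9.44. Of the other mitosis genes Mad1l1 alone passed, at -1.69 ± 0.33 (adjusted p = 0.0231), and of 45 S phase genes and 19 regulators none, with 3 and 1 at an unadjusted p under 0.05, against the same 17.9%. Against PostDP, all 3 Tak1-deficient arrays were higher in 23 members, where 18.4% of all genes tested were, and lower in 1, Smc4, where 11.7% were.

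**Figure D4:**
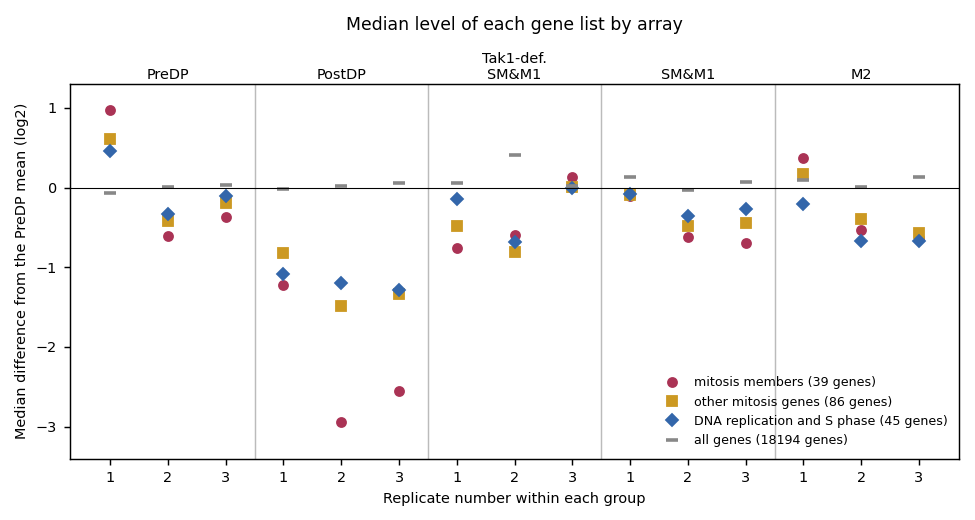
Median difference from the PreDP mean (log2) in each array, by group and replicate number, for the mitosis members, other mitosis genes, DNA replication and S phase genes, and all genes. The PostDP members lie between -2.94 and -1.22, the S phase genes there between -1.28 and -1.08, and all genes stay near 0.

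Replicate 1 was the highest array of its group for all 39 members in the PreDP and PostDP arrays, for 35 in SM&M1 and for 37 in M2; in Tak1-deficient SM&M1 replicate 3 was highest for 29 and replicate 2 for 10. The median excess of replicate 1 over the mean of the other 2 arrays was 1.47, 1.42, 0.59 and 1.0 in PreDP, PostDP, SM&M1 and M2, while over all genes it lay between -0.09 and 0.06. In the CD4SP arrays, markers of other cells moved with it. The summed signal of 10 natural killer T and innate-like genes was 5295 in SM&M1 replicate 1, against 1180 and 1400 in the other 2 arrays, and 5527 in M2 replicate 1, against 1499 and 1822. For 11 macrophage genes it was 1976 in SM&M1 replicate 1, against 689 and 860, and 2014 in M2 replicate 1, against 772 and 868. In replicates 1, 2 and 3 of Tak1-deficient SM&M1 these sums were 1544, 3518 and 5264 and 889, 3391 and 2414. Of the innate-like list Il4, and of the macrophage list C1qc, Mertk and Itgam, were below the array median in all 15 arrays. Others were not: in SM&M1 replicate 1, with an array median of 7.10, Csf1r was at 8.55 and Zbtb16 at 7.57. The median of the double-positive markers was higher in SM&M1 and M2 replicate 1 too, at -3.84 and -3.98 relative to PreDP against -6.70 to -6.04 in the other 4 arrays. The genes of that list did not move alike. In SM&M1 Rag1 was at 10.55, 6.93 and 7.68, and Rag2, Dntt and Ly6d were also highest in replicate 1. Cd8a was at 8.03, 7.68 and 7.65 there and Cd8b1 at 10.54, 10.28 and 10.21. Cd4 was lowest in replicate 1 of both groups. The sum of 6 B cell genes was 1111 in SM&M1 replicate 1, against 435 and 374, and 910 in M2 replicate 1, against 360 and 591. Effector or memory genes had medians of 1.78, -0.01 and 0.30 in SM&M1 and 2.24, 0.21 and 0.42 in M2, relative to PreDP. Their sum was highest in replicate 1 in M2 but not in SM&M1, and the erythroid sum in neither group. In PostDP the natural killer T sum was 1337 in replicate 1, against 1316 and 1419 in the other 2 arrays, and in PreDP it was 4618, against 2981 and 3829. The PreDP sums rest mostly on Gzma, at 12.08, 11.45 and 11.76, and 1 of the 10 genes was above the array median in all 3 PreDP arrays. Gzma was at 11.13 in SM&M1 replicate 1 and 11.23 in M2 replicate 1. The median level of the 10 genes was 5.68 in PreDP replicate 1, against 8.57 and 8.27 in replicate 1 of SM&M1 and M2. The macrophage sum of replicate 1 was the lowest of its group in PostDP, at 799, and in PreDP, at 551. The summed signal of 7 double-positive genes was highest in replicate 1 of both groups, at 37340 against 30316 and 25119 in PostDP and 123599 against 101895 and 85873 in PreDP. The part of other cells in the members' levels was not tested.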

How the data were processed

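RNA of sorted mouse thymocytes was hybridised to Affymetrix arrays, 1 per sample; per the labels' protocols, the RNA was amplified in a single round and labelled with biotin. The authors deposited linear signal intensity for 45101 probe sets in 15 arrays. How it was summarised and scaled is not given in the sources used here, but the mean of each array after trimming 2% at each end is 500. Intensity was analysed as log2(intensity + 16), so fold changes of dim genes are understated. No further normalization was applied. Of the probe sets, 34958 had 1 gene in the platform annotation, which is dated, 932 had several and were not used, and 9211 were unnamed here; symbols were updated through RefSeq genes (GRCm38.p6).

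A gene was its probe set with the highest mean. The 11872 genes above the array median in at least 3 arrays, all 39 measured members among them, were tested with limma 3.58.1 (R 4.3.3), 1 mean per group, all 15 arrays, 10 residual degrees of freedom and p-values adjusted by Benjamini-Hochberg over these genes, at an adjusted p under 0.05. The members and lists were chosen with earlier results of these data known. Fold changes were named for the 2 largest called members of each role, Mki67, Cdk1, Top2a and the 3 largest called genes of each other list; other members are given to account for all 40. Promoters came from a RefSeq table, and motifs were matched on both strands. Scripts were tested on simulated data.

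Replicate numbers came from the titles. Deviations from group means of same-numbered samples correlated at 0.339, 0.275 and 0.411 between PostDP and PreDP and at 0.553, 0.436 and 0.326 between M2 and SM&M1, which were taken as paired; they did not pair the other comparisons (-0.244 to 0.150). Alternatives were a fit of the compared groups, replicate blocks, other filters, pseudocounts, probe sets and normalizations, trend and robust moderation, array weights (whose fit may stop short of its tolerance), leaving out each array, and leaving out replicate 1 of both groups, which was chosen after seeing the data.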

Additional observations from a re-analysis of the deposited data

How the results depend on the processing

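Leaving out each of the 15 arrays in turn gave 16 to 33 members lower in PostDP against PreDP (median -2.58 to -1.73; 1171 to 2992 genes called, against 1772 with all arrays) and 5 to 24 members higher in SM&M1 against PostDP (median 1.32 to 2.07; 871 to 2726 genes, against 1423). For M2 against SM&M1 the median ran from -0.066 (without M2 replicate 1) to 0.40 with 82 to 672 genes called, against 277. In Tak1-deficient SM&M1 it ran from -0.17 (without Tak1-deficient SM&M1 replicate 3) to 0.28, being -0.0036 without SM&M1 replicate 3, with 0 to 1 members lower and 65 to 347 genes called, against 201. For M2 against PreDP it ran from -0.60 to 0.25 (without PreDP replicate 1), with 1 to 2 members lower and 2540 to 4699 genes, against 3222.

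With replicate number as a block in fits of the groups compared, 2703 genes were called for PostDP against PreDP, 594 for M2 over SM&M1 and 0 for Tak1 deficiency, and members called were 32 higher for SM&M1 against PostDP, 3 higher for M2 against SM&M1 and 6 lower for M2 against PreDP; in the unpaired comparisons a shared number is only a number. Without the block, these fits called 2468 genes for SM&M1 against PostDP, 428 for M2 over SM&M1 and 5 for Tak1 deficiency. Array weights called 3697, 3388, 931, 373 and 5494 genes in PostDP, SM&M1, M2 against SM&M1, Tak1-deficient SM&M1 and M2 against PreDP, with 31 members higher in SM&M1, 1 lower in Tak1-deficient SM&M1 and a median of 0.089 in M2 against PreDP. Centring each array on its median called 825, 132 and 97 genes for SM&M1, for M2 over SM&M1 and for Tak1 deficiency, moved the median of all genes by -0.14 in PostDP against PreDP, -0.15 in Tak1-deficient SM&M1 and -0.15 in M2 against PreDP, and gave 36.1% of calls higher in PostDP, against 49.3%, 13.4% in Tak1-deficient SM&M1, against 25.4%, and 44.5% in M2 against PreDP, against 53.9%, where the majority turned from higher to lower. The median of the members in Tak1-deficient SM&M1 was then -0.034, and -0.0043 after quantile normalization, so it has no settled sign. With no filter 114 genes were called there, and when probe sets were averaged 1 member, Smc4, was lower. Leaving replicate 1 out of both groups called 1100, 694 and 110 genes in PostDP against PreDP, SM&M1 against PostDP and M2 against SM&M1. The cause of these shifts was not tested. Calls of Ect2, Ube2c, Cdc20 and Cenpa in PostDP were lost in 17, 16, 14 and 12 of 29 alternatives. No member was called higher in PostDP against PreDP or lower in SM&M1 against PostDP in any alternative run. Signals below the array median, as in PostDP replicates 2 and 3, limit the folds.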
